A study of Mus musculus with 12 samples.

Results

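The insulin and insulin-like growth factor (IGF) receptors, their adapters and their binding proteins were followed in Min6 cells, a mouse insulinoma line used as a model of the pancreatic beta cell. The set holds 10 genes: the ligand Igf2, the receptors Insr, Igf1r, Insrr and Igf2r, the adapters Irs1, Irs2 and Irs4, and the binding proteins Igfbp4 and Igfbp5. They were found by name in the annotation of Affymetrix gene arrays, taking only probe sets that carry a single gene symbol. This gave 12 probe sets, with a pair each for Insr and Irs1, among 35556 probe sets and 19938 named genes. Every value below is the deposited log2 expression value of a probe set, so a difference of log2 values is a log2 fold change.

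There were 12 arrays, 4 for each of 3 ways of growing the cells over 3 periods of 5 days. In the return condition (RC) the cells had 5 days without serum at 5% oxygen, with the same supplements as given below for DC. They were then moved back into 15% fetal calf serum at 20% oxygen for 5 days. In the defined condition (DC) the last 10 days were without serum at 5% oxygen, in DMEM-F12 with apo-transferrin (100 µg/mL), progesterone (20 nM), putrescine (100 µM) and selenite (30 nM). In the classic condition (CC) the cells stayed in DMEM with 15% fetal calf serum and 70 µM 2-mercaptoethanol at 20% oxygen. Both media held penicillin and streptomycin. The recipe given for the serum-free medium names neither insulin nor an IGF. Serum, oxygen, basal medium and supplements changed together, so their parts in any difference cannot be told apart, and RC and DC differ in days without serum as well as in the final medium. The cells are a single tumour line, and the 4 samples of a condition came from 1 experiment, so the p-values measure only the spread between these samples, which may be technical.

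The comparison of DC with CC asks what the serum-free, low-oxygen culture did. That of RC with DC sets cells moved back against cells kept without serum, and that of RC with CC asks what differed after the return. No array was taken just before the move back. A rise or fall in RC is therefore relative to DC, not a course followed in the same cells. The 3 comparisons share arrays, since each condition enters a pair of them. All 12 of the beta cell markers measured, of 15 listed, lay above the level below which 95% of the probe sets of olfactory receptors fall (7.69 on the log2 scale). Arrays differed in the spread of their values, with interquartile ranges between 2.42 and 2.75, and array RC 3 received the lowest of the array weights (0.161, against a highest of 3.01). The CC arrays fell into pairs for some genes, CC 1 with CC 2 and CC 3 with CC 4. The members' calls were also tried without these arrays, and the values are given where a call changed. Of the 12 beta cell markers, 2 were called higher in DC than in CC and lower in RC than in DC, an order of DC over CC and RC that Insrr shared. They were the transcription factor Nkx2-2 (0.29 and -0.34) and the zinc transporter Slc30a8 (0.31 and -0.45). Their calls for DC against CC were kept in 9 and 3 of 12 fits without an array. Both were lost when either pair of CC arrays was left out. Over the 12 markers, the median log2 difference was -0.01 for DC against CC and -0.08 for RC against DC. The part of Nkx2-2 and Slc30a8 in the Insrr result was not tested.

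The insulin receptor and the IGF1 receptor are tyrosine kinases that sit in the plasma membrane and phosphorylate IRS adapter proteins, which in turn recruit phosphatidylinositol 3-kinase. Insrr, the insulin receptor-related receptor, is a kinase of the same family that binds neither insulin nor IGFs and is known as a sensor of alkaline pH. Igf2r has no kinase domain and carries IGF2 to the lysosome, and IGF binding proteins hold IGFs outside the cell. In beta cells these proteins are known for their parts in growth, survival and the maintenance of beta cell mass, with Irs2 a main adapter.

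In DC cells Igfbp4, Igf1r and Irs1 fell and Insrr rose relative to CC cells, while Insr, Igf2, Igf2r and Irs2 did not pass the test. In RC cells Igfbp4 lay between its DC and CC levels, and Insrr lay below both of its levels. The calls of RC against CC were kept in 5 of 12 fits without an array for Igfbp4 and in 4 of 12 for Insrr. For DC against CC 4 of 12 probe sets were called, where 6.64% of all probe sets were. Of the 4, 1 was higher (2.31% of all probe sets were called higher) and 3 were lower (4.32% of all). When RC was set against DC, 2 of 12 were called, where 2.63% of all were, 1 of them higher (1.45% of all) and 1 lower (1.18% of all). Between RC and CC 2 of 12 were called, both lower in RC, where 0.796% of all were called and 0.675% were called lower. A call means an adjusted p under 0.05 in limma's moderated test, two-sided, with Benjamini-Hochberg adjustment over all 35556 probe sets. The shares of all probe sets include those of low signal and are not matched to the members in level. With only probe sets above the median of all values tested, 2598, 1054 and 439 were called in that order of comparisons. Over all probe sets 2360, 936 and 283 were, so calls were more frequent at higher signal.

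Igf1r, Irs1 and Igfbp4 fell together in DC cells, and the sequences upstream of their starts are printed to show what these stretches hold. Each is the 250 bases before the RefSeq start of the gene in GRCm38.p6, read 5′ to 3′ on the gene's strand. Capitals mark GC boxes (GGGCGG), the form ACGTG of the hypoxia response core with its opposite strand CACGT, and the TATA motif TATAAA. Other forms of that core were not searched, so a hypoxia core below means ACGTG only. The 3 genes were chosen for printing, and the TATA motif was added to the search, after their values and sequences had been seen.
Igf1r, chr7:67952007-67952256, plus strand: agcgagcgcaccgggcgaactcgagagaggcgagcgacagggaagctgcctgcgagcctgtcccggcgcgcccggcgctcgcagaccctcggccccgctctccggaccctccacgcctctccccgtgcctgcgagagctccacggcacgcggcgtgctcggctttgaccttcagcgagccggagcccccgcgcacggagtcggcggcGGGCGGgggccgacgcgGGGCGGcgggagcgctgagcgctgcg
Irs1, chr1:82291440-82291689, minus strand: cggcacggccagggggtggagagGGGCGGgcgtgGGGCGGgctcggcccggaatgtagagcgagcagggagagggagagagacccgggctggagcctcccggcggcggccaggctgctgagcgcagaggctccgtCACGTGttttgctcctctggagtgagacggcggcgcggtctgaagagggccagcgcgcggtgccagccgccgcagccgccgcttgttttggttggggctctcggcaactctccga
Igfbp4, chr11:99040994-99041243, plus strand: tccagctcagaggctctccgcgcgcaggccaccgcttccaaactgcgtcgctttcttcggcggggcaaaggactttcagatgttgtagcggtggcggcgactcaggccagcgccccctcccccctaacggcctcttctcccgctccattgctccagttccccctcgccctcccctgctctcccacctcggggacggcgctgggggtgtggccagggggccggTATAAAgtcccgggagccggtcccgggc

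The Igf1r stretch is 77.6% G and C and holds 2 GC boxes and no TATAAA. The Irs1 stretch is 72.4% G and C and holds 2 GC boxes, and its CACGTG matches the hypoxia core once on each strand. The Igfbp4 stretch is 69.2% G and C, with 1 TATAAA and neither a GC box nor an ACGTG. Over 32851 RefSeq promoters of the same length, searched on both strands, 32.7% held a GC box, 16.6% ACGTG and 12.4% TATAAA, and the median G and C content was 52.4%. The forkhead motif GTAAACA (3.17% of all promoters) and the cyclic AMP response element TGACGTCA (1.55%) had 0 matches in these 3 stretches. Members not called held the same motifs: Igf2r had 3 GC boxes and 4 hypoxia cores, Irs2 had 1 and 2, and Irs4 had 2 and 2. Igfbp5 had 0 of either, and the stretches of Igf2 had 0 to 2 GC boxes and 0 to 1 hypoxia cores. A match or its absence describes these letters only.

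**Figure D1:**
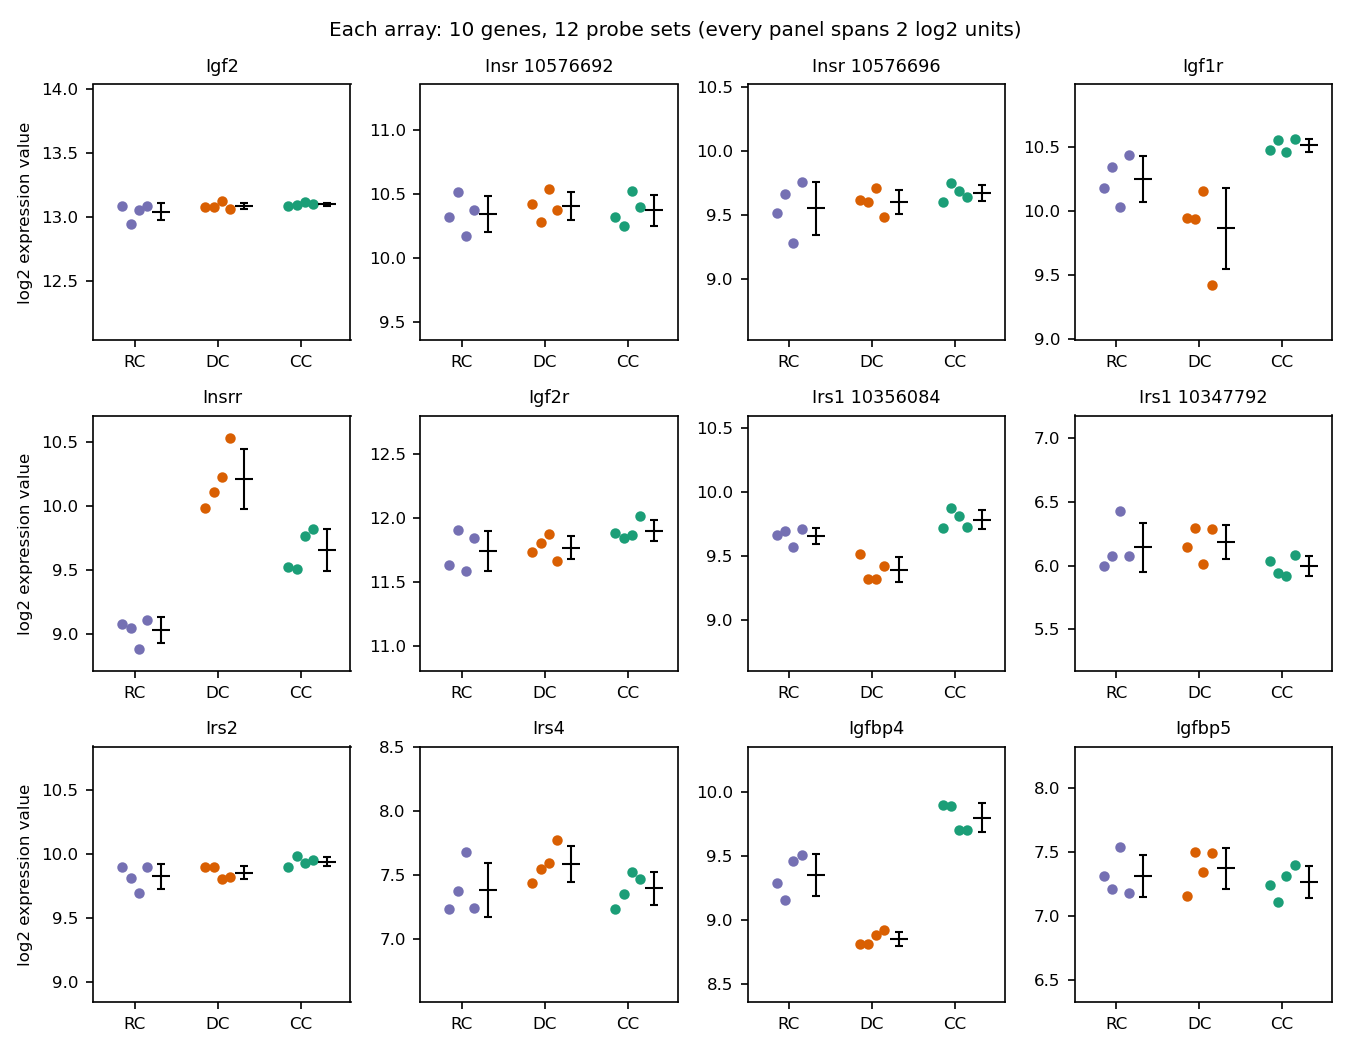
Deposited log2 expression value (vertical axes, each spanning 2 log2 units) of the 12 probe sets on each array, in RC, DC and CC from left to right. Points are single arrays, and the bars beside them show the mean and SD of 4 arrays. The DC points of Igfbp4, Igf1r and Irs1 10356084 lie below all CC points, and those of Insrr lie above all others.

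Igf2, an IGF that can act through the IGF1 receptor and through 1 form of the insulin receptor, is imprinted and strongly expressed in fetal tissue. Its log2 values were 13.09, 12.95, 13.05 and 13.08 in RC, 13.08, 13.07, 13.12 and 13.07 in DC, and 13.09, 13.09, 13.11 and 13.10 in CC. The 12 values lay within a narrow band, with array RC 2 the lowest. The difference was -0.02 for DC against CC (95% interval -0.13 to 0.09) and -0.04 for RC against DC, neither called (limma, adjusted p = 0.855 and 0.850). In RefSeq the gene overlaps Igf2os and Mir483, so part of the signal at this locus may come from them.

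Insr, the insulin receptor, was measured by a pair of probe sets and neither was called in any comparison. The first (10576692) averaged 10.35 ± 0.14 in RC, 10.41 ± 0.11 in DC and 10.37 ± 0.12 in CC (SD, n = 4 each). The second (10576696) averaged 9.56 ± 0.21 in RC, 9.61 ± 0.095 in DC and 9.67 ± 0.065 in CC (SD, n = 4 each). The groups overlapped for both. For DC against CC the intervals of the log2 difference ran from -0.16 to 0.22 and from -0.27 to 0.14.

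Igf1r, the receptor for IGF1 and IGF2, fell in DC cells. Its log2 values were 10.18, 10.34, 10.03 and 10.44 in RC, 9.95, 9.94, 10.16 and 9.42 in DC, and 10.48, 10.56, 10.47 and 10.56 in CC. Every DC and every RC array lay below every CC array, DC and RC overlapped, and DC 4 was the lowest of all. In RefSeq the gene overlaps Gm51487 and Gm51488, so part of the signal may come from them. DC minus CC was -0.65 ± 0.14 (SE; 95% interval -0.94 to -0.35; limma, adjusted p = 0.0115), which is 1.57-fold lower in DC. The mean order was DC, RC, CC, and the differences of RC from both neighbours missed the threshold, at 0.38 ± 0.14 against DC and -0.27 ± 0.14 against CC (limma, adjusted p = 0.232 and 0.625).

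The DC spread of Igf1r came mostly from DC 4. Without that array, DC minus CC was -0.50 and still called (limma, adjusted p = 0.0107), and RC minus DC was 0.23. Without CC 1 and CC 2 the DC difference from CC was -0.65 with an adjusted p of 0.114, and without CC 3 and CC 4 it was -0.65 with an adjusted p of 0.0755 (limma), neither of them called.

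Insrr rose in DC cells and was lowest in RC cells. Along with Igfbp4 it was called in all 3 comparisons. Its log2 values were 9.07, 9.05, 8.88 and 9.11 in RC, 9.98, 10.11, 10.23 and 10.53 in DC, and 9.52, 9.51, 9.76 and 9.82 in CC. No group overlapped another, and the order of the means was RC, CC, DC. DC minus CC was 0.56 ± 0.11 (SE; limma, adjusted p = 0.0104), a 1.47-fold higher value in DC. RC minus DC was -1.19 ± 0.11 (SE; 95% interval -1.44 to -0.94; limma, adjusted p = 0.000139), or 2.27-fold lower in RC.

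RC also lay below CC for Insrr, with a log2 difference of -0.63 ± 0.11 (SE; limma, adjusted p = 0.0311), which is 1.54-fold lower. That last call was lost when any single RC or CC array was left out, with adjusted p-values up to 0.117 and differences between -0.68 and -0.57. It was also lost without CC 1 and CC 2 (-0.77, limma adjusted p = 0.0916) and without CC 3 and CC 4 (-0.49, adjusted p = 0.315). The RC fall relative to DC kept its call in all 12 fits without a single array. Without CC 1 and CC 2, the lower pair of CC arrays, DC minus CC was 0.42 and not called (limma, adjusted p = 0.179). Without CC 3 and CC 4 it was 0.70 and called (adjusted p = 0.0198). Of all 35556 probe sets, 2 showed the calls of Insrr (higher in DC than CC, lower in RC than both). The other was Srebf1, a master regulator of lipid synthesis, at 0.43 for DC minus CC, -0.73 for RC minus DC and -0.30 for RC minus CC on the log2 scale. This count depends on passing all 3 thresholds. The same order of means, outside the count, was seen for Map3k15 (0.33, -0.83 and -0.50 for those differences), Abhd15 (0.31, -0.77 and -0.47) and Cdhr1 (0.09, -0.79 and -0.70).

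Igf2r, the clearance receptor for IGF2, averaged 11.74 ± 0.16 in RC, 11.77 ± 0.089 in DC and 11.90 ± 0.079 in CC (SD, n = 4 each). It was not called, with a DC difference from CC of -0.13 (95% interval -0.31 to 0.04). The RC values spanned 11.58 to 11.90 and overlapped both other groups. Its locus overlaps the antisense transcript Airn in RefSeq.

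Irs1, an adapter that couples the receptors to phosphatidylinositol 3-kinase, fell in DC cells on 1 of its probe sets. The log2 values of probe set 10356084 were 9.66, 9.70, 9.57 and 9.71 in RC, 9.52, 9.32, 9.32 and 9.43 in DC, and 9.72, 9.88, 9.81 and 9.73 in CC. All 4 DC arrays lay below every other array, and all RC arrays lay below all CC arrays. DC minus CC was -0.39 ± 0.065 (SE; limma, adjusted p = 0.00282), or 1.31-fold lower in DC. RC minus DC was 0.26 ± 0.065 and just missed the threshold (limma, adjusted p = 0.0552), and RC minus CC was -0.13 (adjusted p = 0.633).

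The difference of Irs1 between RC and DC was called in 2 of the 12 fits that leave out an array, without DC 1 and without RC 3, and missed in the other 10. The DC fall kept its call without any single array and without either CC pair (limma, adjusted p = 0.0381 and 0.0292). The second Irs1 probe set, 10347792, is tied to the gene by a lone GenBank accession. It lay between 5.92 and 6.42 on all arrays, below the level of 7.69 reached by the top 5% of olfactory receptor probe sets. Its DC difference from CC was 0.19 (95% interval -0.02 to 0.40), opposite in sign to the first and not called.

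Irs2, the adapter most tied to beta cell survival in mice and known as a target of CREB there, was not called. Its values were 9.90, 9.81, 9.70 and 9.90 in RC, 9.90, 9.90, 9.80 and 9.82 in DC, and 9.90, 9.99, 9.93 and 9.95 in CC. The CC arrays were the highest as a group, although CC 1 was level with RC 1, RC 4, DC 1 and DC 2 at 2 decimals, and the largest of the 3 log2 differences was -0.11 for RC against CC (95% interval -0.24 to 0.02). Irs4, an adapter of narrower expression, ranged from 7.23 to 7.68 in RC, from 7.44 to 7.78 in DC and from 7.24 to 7.53 in CC. Its mean in each group was below the olfactory receptor level of 7.69, and it was not called. In RefSeq Irs2 overlaps 9530052E02Rik and Irs4 overlaps Gm15295.

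Igfbp4, a binding protein that is known mostly as an inhibitor of IGF action, showed the largest fall of the members in DC cells. Its log2 values were 9.29, 9.15, 9.46 and 9.51 in RC, 8.81, 8.81, 8.88 and 8.92 in DC, and 9.90, 9.89, 9.71 and 9.71 in CC. The groups did not overlap, with DC lowest and RC between DC and CC. DC minus CC was -0.95 ± 0.084 (SE; 95% interval -1.13 to -0.76; limma, adjusted p = 3.1e-05), which is 1.93-fold lower in DC.

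On return, Igfbp4 rose by 0.50 ± 0.084 relative to DC (SE; limma, adjusted p = 0.00615), or 1.41-fold. It was lower in RC than in CC by a log2 difference of -0.45 ± 0.084 (SE; limma, adjusted p = 0.0321), so that the RC difference was 47.4% of the DC difference. Of all probe sets, 32 had the same 3 calls. The DC fall kept its call without any single array, and without either CC pair (-0.85 and -1.04). The difference of RC from CC was called in 5 of 12 fits without an array, and lost without any CC array, DC 2, RC 1 or RC 2, with adjusted p-values up to 0.119. It was not called without CC 1 and CC 2 (-0.35, adjusted p = 0.308) or without CC 3 and CC 4 (-0.54, adjusted p = 0.139). The rise relative to DC was just missed without RC 3, DC 2 and DC 4 (0.47, adjusted p = 0.0508).

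Igfbp5, another IGF binding protein, lay between 7.18 and 7.54 in RC, 7.16 and 7.50 in DC and 7.11 and 7.40 in CC. The groups overlapped, all means were below the olfactory receptor level, and no comparison called it. Fewer cells of a kind and less RNA per cell cannot be told apart for any of these genes in bulk RNA.

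**Figure D2:**
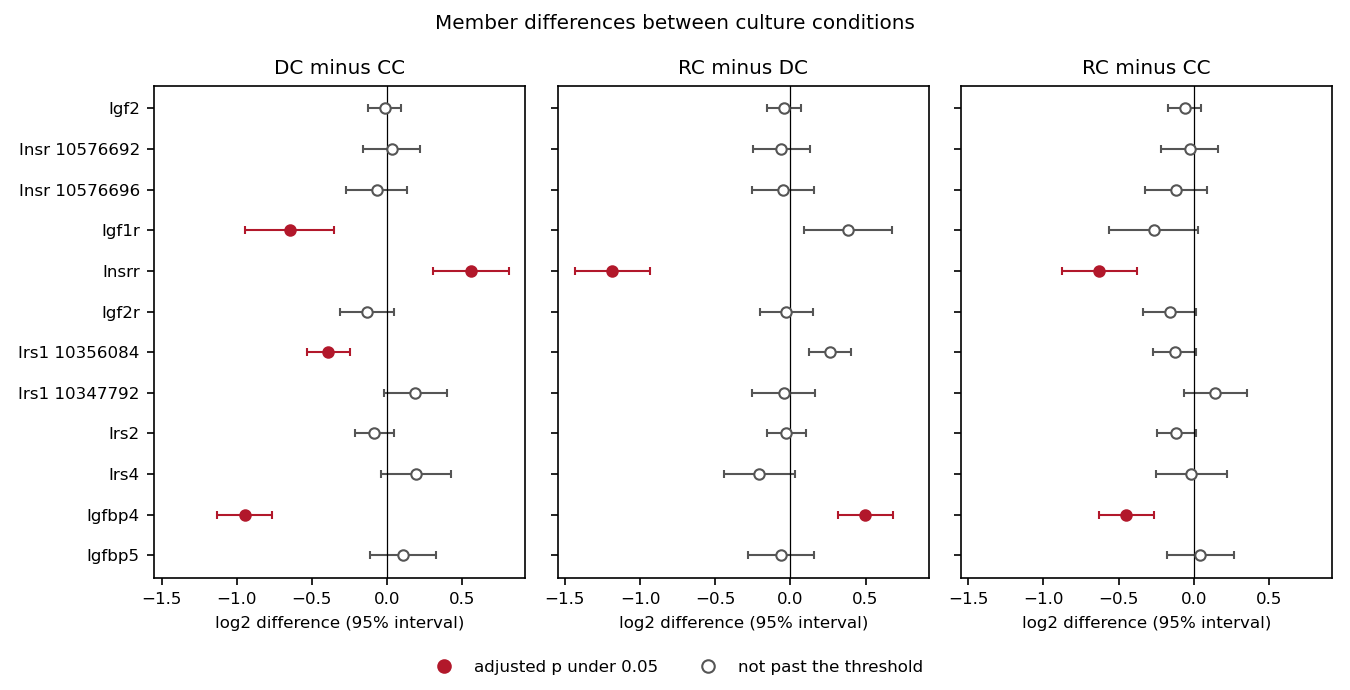
Log2 difference (horizontal axes) of each of the 12 probe sets for DC minus CC, RC minus DC and RC minus CC, with limma's 95% intervals as bars. Filled points have an adjusted p under 0.05. Igfbp4 and Insrr are filled in all 3 panels, and Igf1r and Irs1 10356084 in the first panel only.

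Within an array, members of 1 role can be set against each other in how they moved, although the size of such a difference also reflects the probes. With the first Insr probe set, Insr minus Igf1r was -0.06 to 0.17 in RC, 0.35 to 0.96 in DC and -0.31 to 0.06 in CC, so the DC arrays lay above all others. Likewise Insr minus Insrr was 1.25 to 1.47 in RC, -0.16 to 0.44 in DC and 0.58 to 0.79 in CC, and no group overlapped another. Irs1 10356084 minus Irs2 was -0.24 to -0.11 in RC, -0.58 to -0.38 in DC and -0.23 to -0.11 in CC, with the DC arrays below the rest. These pairs were picked with the values known, and the differences were not tested.

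**Figure D3:**
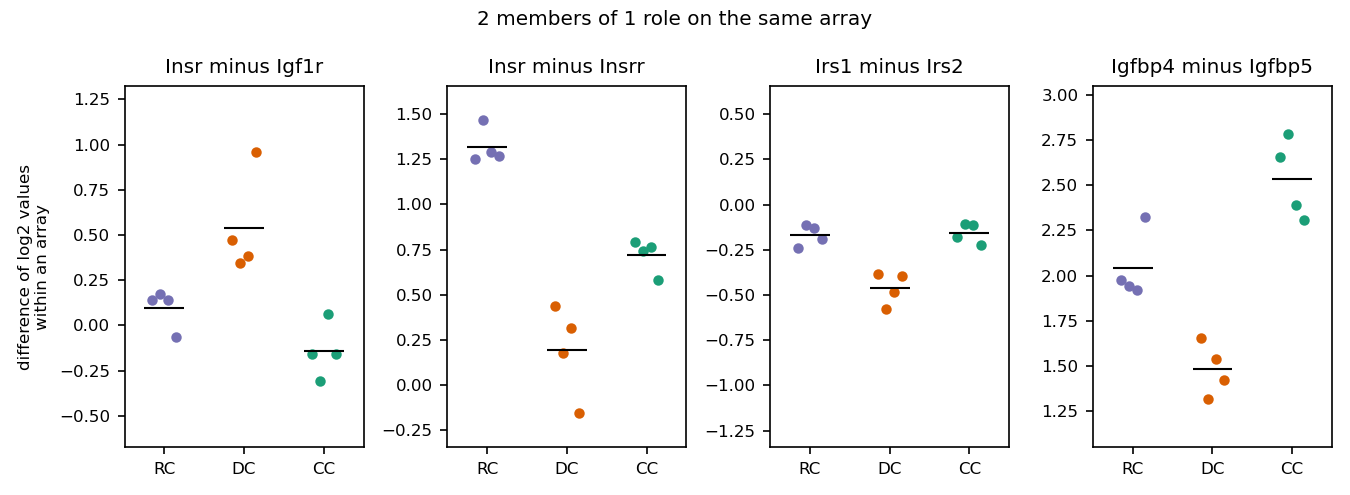
Difference of the log2 values of 2 members on the same array (vertical axes, log2 units), for 4 pairs of members, in RC, DC and CC from left to right. Points are single arrays and lines are means of 4 arrays. The DC points stand apart from the RC and CC points in all 4 panels.

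For the members called in any comparison, the genes of most similar course were those whose 12 values, centred on their mean, lay at the smallest root mean square distance. Closest to Igf1r were Yipf5 (0.0911), Prcp (0.105) and Lgals3bp (0.105). Closest to Irs1 were Fmnl2 (0.0432), Sh3d19 (0.0487) and Ptprd (0.0504), the tightest of the 4 sets. Closest to Igfbp4 were Pld5 (0.109), Gpr161 (0.118) and Cyb561 (0.124). Closest to Insrr were Map3k15 (0.173), Abhd15 (0.205) and Cdhr1 (0.215). The values were not scaled, so a distance also grows with the range of the member, which was 1.65 for Insrr and 0.56 for Irs1 10356084. The distances therefore do not rank the members by likeness to their neighbours.

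Of 156 other genes listed for the pathway, 142 were measured, with 1 probe set each. The lists were chosen with earlier results of these data known, so their shares of calls are a description only. The shares of all genes include genes of low signal, where calls were less frequent. Most listed genes lay above the olfactory receptor level, such as 20 of 20 for TSC, mTOR and translation. Some lists had fewer, such as 2 of 7 other IGF binding proteins. The part of signal level in the list shares was not tested. For DC against CC 10 were higher (2.97% of all 19938 genes were) and 17 lower (6.13% of all). Together they made up 19% of those measured, where 9.1% of all genes were called. When RC was set against DC, 8 were higher (1.96% of all genes) and 8 lower (1.71% of all), which is 11.3% of those measured against 3.67% of all. Between RC and CC 0 were higher and 4 lower in RC (1.07% of all genes), 2.82% of those measured against 1.23% of all. The median log2 difference of the 142 was 0.02, -0.03 and -0.03 in that order of comparisons, against 0.06, -0.03 and 0.03 over all genes. Of the 27 genes called for DC against CC, 10 kept their call without CC 1 and CC 2 and 16 without CC 3 and CC 4. Those kept in both fits were Shc3, Cish, Ddit4, Ccng2, Bcl6, Bnip3, Nr4a2 and Nr4a3. All 4 called between RC and CC lost their call when either pair of CC arrays was left out. Of the 16 called between RC and DC, 13 were kept without RC 3, DC 2 and DC 4.

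**Figure D4:**
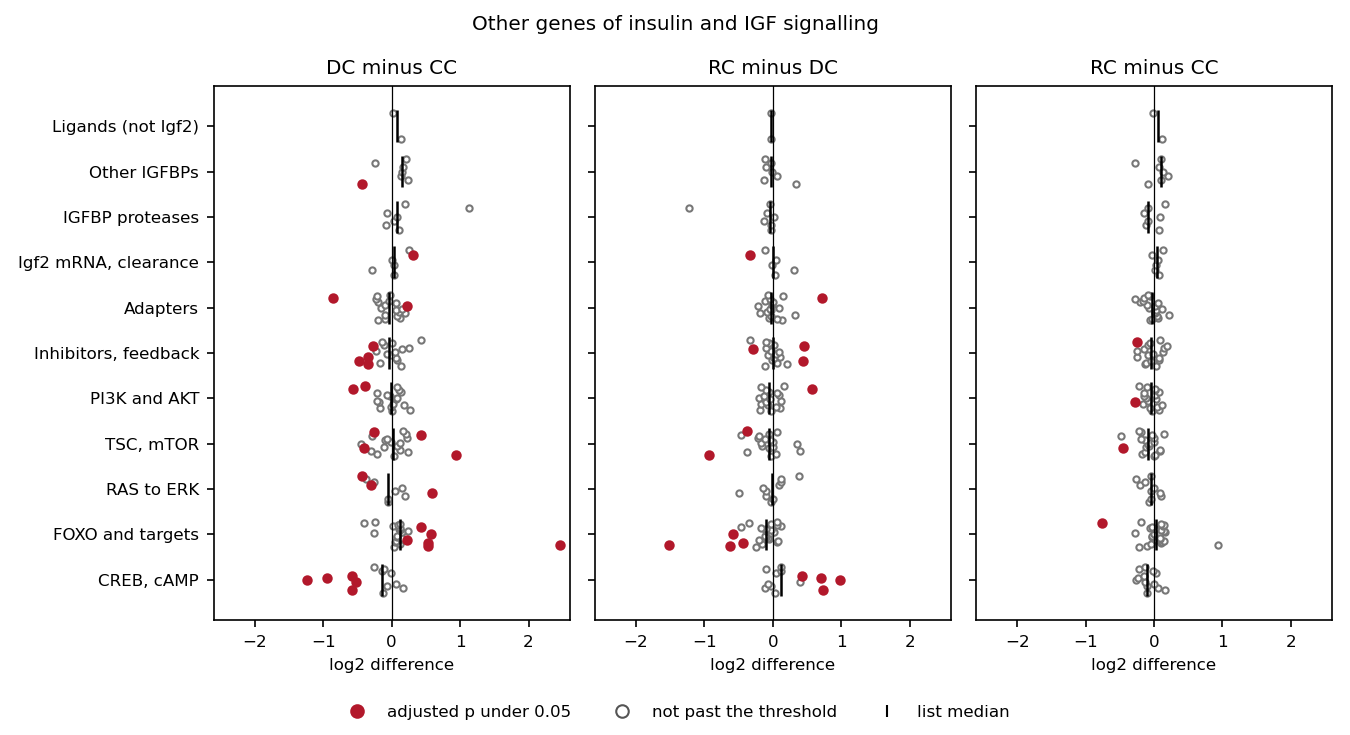
Log2 difference (horizontal axes) of the other measured genes of insulin and IGF signalling, by list, for DC minus CC, RC minus DC and RC minus CC. Filled points have an adjusted p under 0.05 and short vertical bars are list medians. The filled points of the CREB and cAMP list are all below 0 in the first panel and above 0 in the second.

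Ins2, the insulin gene measured here, did not pass the test (0.01 ± 0.051 for DC against CC), and neither did Igf1 (0.14 ± 0.089). Igf1 lay between 7.08 and 7.54 on all arrays, below the olfactory receptor level of 7.69. Of 7 other IGF binding proteins 1 fell in DC, Igfals, the subunit that stabilises circulating IGF complexes (-0.43 ± 0.11, limma adjusted p = 0.0325), a call kept in 6 of 12 fits without an array. None of 7 proteases and protease inhibitors was called by limma, with 2 at an unadjusted p under 0.05. The larger of these was Stc1, whose product stanniocalcin inhibits the protease that cleaves Igfbp4. Stc1 had log2 values of 9.09, 8.94, 9.13 and 9.18 in RC, 10.15, 10.68, 11.24 and 9.16 in DC, and 9.10, 9.16, 9.27 and 9.17 in CC. DC 4 alone stayed at the level of the other conditions, and the DC difference from CC was 1.13 ± 0.32 (limma, adjusted p = 0.0534). RC minus DC was -1.22 ± 0.32 (adjusted p = 0.0687). Without DC 4 both differences of Stc1 were called, at 1.51 and -1.60 (adjusted p = 0.000615 and 0.000762), and without RC 3 the first was (adjusted p = 0.0468), so the count of 0 in this list rests on those arrays.

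Among genes that clear insulin and IGFs or bind Igf2 mRNA, 1 of 6 rose in DC, the endocytic receptor Lrp1. Its log2 difference was 0.31 for DC against CC and -0.34 for RC against DC (limma, adjusted p = 0.00794 and 0.00945). Of 19 adapters, Shc3 fell by 0.86 in DC and rose by 0.72 in RC relative to DC, and Nck2 rose by 0.23 in DC. Shc3 kept both calls without any single array, and Nck2 kept its call in 8 of 12 fits.

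Of 18 receptor inhibitors and feedback genes, 4 fell in DC (6.13% of all genes did) and 0 rose (2.97% of all). Without single arrays, 2 to 5 fell and 0 to 2 rose. Cish, a cytokine-induced feedback inhibitor, had a log2 difference of -0.48, and Grb14, which blocks the insulin receptor kinase, had -0.35. The ubiquitin ligase Cbl had -0.35 and Socs2, a feedback inhibitor of growth hormone signalling, had -0.27. Cish and Socs2 were higher in RC than in DC (0.44 and 0.46), and the phosphatase Ptprs was lower by 0.29, a call kept in 7 of 12 fits. A second Socs2 probe set was called in the same directions, with means of 8.30 in RC, 6.55 in DC and 8.07 in CC. Its DC mean lay below the olfactory receptor level of 7.69, so the size of its difference is not set against that of the first. Of the 4 DC calls, that of Cish was kept without any single array, Cbl's in 11 of 12 fits (lost without DC 2), Grb14's in 8 and Socs2's in 7.

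In the list of phosphatidylinositol 3-kinase and AKT, 2 of 18 genes fell in DC (6.13% of all genes did) and 0 rose (2.97% of all). Both that fell encode regulatory subunits of the kinase. Pik3r1 fell by 0.56 and Pik3r3 fell by 0.38 on the log2 scale (limma, adjusted p = 0.00769 and 0.0277), and Pik3r1 rose by 0.57 in RC relative to DC. The Pik3r1 fall was kept without any single array but not without CC 1 and CC 2 (-0.45, adjusted p = 0.139), while that of Pik3r3 was kept in 8 of 12 fits. The Pik3r1 rise in RC was lost without DC 2, RC 1 or RC 4. In the list of TSC, mTOR and translation, 2 of 20 rose in DC and 2 fell. Ddit4, an inhibitor of mTOR that low oxygen induces, rose by 0.94 and Sesn3 by 0.43, while the translation repressor Eif4ebp2 fell by 0.40 and Tsc2 fell by 0.26. Ddit4 fell by 0.93 in RC relative to DC and kept both calls without any single array, but Sesn3 and Tsc2 each kept theirs in 4 of 12 fits. The autophagy kinase Ulk1 also fell by 0.38 in RC relative to DC, kept in 8 of 12 fits. Of 10 genes from RAS to ERK, Map2k1 rose by 0.59 in DC, while Spred2 fell by 0.43 and Nras fell by 0.30. Those calls were kept in 6, 11 and 7 of 12 fits without an array. A second Spred2 probe set had -0.56 and was not called (limma, adjusted p = 0.0577).

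FOXO factors are known to be held out of the nucleus by insulin and IGF signalling, which was not tested here. Of 25 FOXO factors and known target genes, 6 rose in DC (2.97% of all genes did) and 0 fell (6.13% of all). The 4 with the largest change were Bnip3 at 2.46 ± 0.20, Gadd45a at 0.57 ± 0.10, Ccng2 at 0.54 ± 0.079 and Bcl6 at 0.53 ± 0.080, and each kept its call without any single array. The same 4 fell in RC relative to DC, with log2 differences of -1.52 for Bnip3, -0.58 for Gadd45a, -0.44 for Ccng2 and -0.63 for Bcl6. Bnip3 is also a well-known target of hypoxia-inducible factors, and oxygen was lower in DC. Over the list, the median log2 difference was 0.12 for DC against CC and -0.10 for RC against DC, where all genes had 0.06 and -0.03. Without single arrays, the number that rose ranged from 4 to 6 and the number that fell from 0 to 2. Sesn3 and Fbxo32, also among those that rose, each kept their call in 4 of 12 such fits. Trp53inp1, a listed target not called for DC against CC, went the other way, at 9.51 to 10.18 in DC and 10.17 to 10.39 in CC.

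Of 13 CREB and cyclic AMP-responsive genes, 5 fell in DC (6.13% of all genes did) and 0 rose (2.97% of all). Nr4a1, Nr4a2 and Nr4a3, orphan nuclear receptors induced early after cyclic AMP or growth factors, fell, with log2 differences of -1.24, -0.94 and -0.58 in that order, and Crem fell with -0.58. All 4 rose in RC relative to DC, by 0.98 for Nr4a1, 0.71 for Nr4a2, 0.43 for Nr4a3 and 0.73 for Crem (limma, adjusted p between 0.00337 and 0.0233). Nr4a3 lay at 7.26 to 7.42 in DC, below the olfactory receptor level of 7.69, so the size of its differences is less certain. The list median was -0.14 for DC against CC and 0.12 for RC against DC. Between 3 and 5 genes of the list fell without single arrays. The Crem fall in DC and the Nr4a1 rise in RC were each kept in 7 of 12 such fits. For RC against CC, 4 genes in all the lists were called, all lower in RC. They were Trp53inp1 (-0.76), Eif4ebp2 (-0.45), Inppl1 (-0.28) and Socs7 (-0.25), kept in 7, 6, 2 and 1 of 12 fits without an array.

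Markers of other cell types were read beside these results. Of 9 fibroblast and stellate cell markers, 5 lay above the olfactory receptor level, 0 were called in any comparison by limma, and 1 had an unadjusted p under 0.05 for DC against CC. Their summed linear values were 1948 to 2574 in RC, 1960 to 2494 in DC and 1828 to 2161 in CC, ranges that overlap. Above the olfactory receptor level lay 1 of 6 endothelial, 2 of 5 immune and 2 of 6 exocrine and ductal markers measured, and limma called 0 of them in any comparison, with 2 endothelial genes at an unadjusted p under 0.05 for DC against CC. Of 4 other islet hormone genes measured, 1 was called, Sst (somatostatin), at -1.26 for DC minus CC and 1.70 for RC minus DC. The other 3 were not called, and the list medians of these differences were -0.11 and 0.06. A sum of linear values weighs the highest genes most. The summed linear values of the 4 were 10085 to 11899 in RC, 6514 to 8068 in DC and 8996 to 10787 in CC, with DC below both other groups as for Igfbp4 and Irs1 10356084. Their part in the members' differences was not tested.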

How the data were processed

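Total RNA of 12 Min6 cultures had been labelled with biotin and hybridised to Affymetrix arrays, per the labels' protocols. The values used are the authors' deposited log2 expression values, recognised as log2 from their range (3.69 to 14.5). The sources used here do not give the summarisation, normalization or genome build, and no further normalization was applied. Array medians were 7.92 to 8.05. Without detection calls, probe sets of olfactory receptors (1035) served as a description of low signal.

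Groups came from the sample titles. With limma 3.58.1 in R 4.3.3, each of the 35556 probe sets was given a mean for every condition over the 12 arrays (9 residual degrees of freedom). Errors of levels are SDs, and errors of differences are limma's moderated SEs. The procedure was tested on simulated data. List genes were represented by their probe set of highest mean.

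The members, lists and pairs were chosen with earlier results of these data known, and the alternatives that leave out several arrays were added with the data seen. All members were named and, per list and comparison, up to 4 called genes with the largest difference. Where a list had no call, the 2 genes of smallest p were picked out, but not all of these are named in the text. Promoter sequences are from RefSeq, GRCm38.p6, without the 50 bases after the start. All 12 symbols matched RefSeq. Replicate numbers were checked for pairing and do not mark shared material in the labels.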

Additional observations from a re-analysis of the deposited data

How the results depend on the processing

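Over 819 differences of members under alternative settings, 785 stayed on their side of the threshold, 8 newly passed it and 26 no longer did. The sign changed for 36 of the 635 values of differences that were not called, all to within 0.0859 of 0, and for 0 of the 184 of called ones. In the fits without a single array, 4 members were always called for DC against CC, 2 to 3 when RC was set against DC and 0 to 2 between RC and CC. Of all probe sets, 1549 to 3718 were called between DC and CC, 522 to 2892 between RC and DC, and 57 to 352 between RC and CC. For RC against CC, 1 member was called after quantile normalization (Insrr lost, adjusted p = 0.0632), with the compared groups only and with the replicate number as a block (Igfbp4 lost, adjusted p = 0.0696 and 0.115). It was 0 without CC 1 and CC 2 or without CC 3 and CC 4, with 2 at an unadjusted p under 0.05 each time. For RC against DC it was 5 with array weights (Irs1, Igf1r and Irs4 added) and 1 without RC 3, DC 2 and DC 4. For DC against CC it was 2 without CC 1 and CC 2. Probe sets called for DC against CC numbered 4840 with array weights, 991 without CC 1 and CC 2 and 1568 without CC 3 and CC 4. For RC against DC they numbered 1737 with the interquartile range as a covariate, 6413 with array weights and 462 with the compared groups only. For RC against CC they numbered 636 with that covariate, 2818 with weights, 68 with the replicate block, 439 among probe sets above the median, 23 and 18 without the CC pairs and 580 without RC 3, DC 2 and DC 4. The cause was not tested, except that leaving out arrays leaves fewer samples.

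The 823 higher and 1537 lower calls for DC against CC became 502 and 1698 with arrays centred on a common median, and 1203 and 1253 with the covariate. The 43 and 240 for RC against CC became 272 and 364 with the covariate and 1477 and 1341 with weights. Same-numbered arrays correlated between -0.36 and 0.47 in their deviations from the group means, above 0.1 in 5 of 12 pairs, so the numbers were not taken as pairs, and the block changed no other member call. The number of arrays limits the precision, and low probe sets (Irs4, Igfbp5 and the second of Irs1) cannot be set against a background.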

Other observations

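Array DC 4 stood at opposite ends of the DC group for different genes. It had the lowest Igf1r (9.42) and the highest Insrr (10.53) of the DC arrays. It also had the lowest DC values of Bnip3 (11.45, against 11.81 to 12.50 on the other DC arrays), Ddit4 (9.77, against 10.35 to 10.62) and Stc1 (9.16, against 10.15 to 11.24), all known to rise in low oxygen. Igfbp4 and Irs1 on DC 4 lay close to the other DC arrays. No relation between these genes was tested, since the group holds 4 arrays.

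Irs2 carried 1 value (9.9004) to every deposited digit on RC 1, RC 4 and DC 2. Repeats of this kind were common in the table: 8306 of 35556 probe sets (23.4%) had a value shared by 2 or more arrays, and 3172 (8.92%) by 3 or more.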
